A study of Arabidopsis thaliana with 12 samples.

Results

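The flavonoid and anthocyanin enzymes described here are 10 genes of Arabidopsis thaliana, chosen by gene ID as enzymes of 1 pathway. They were found in the table of mRNA counts and in the table of ribosome footprint counts, among 27655 genes in each, and all 10 passed the filter on low counts in both assays. The set was chosen with earlier results of these data known, so its counts beside those of all genes are a description. The plants were wild type of the ecotype Col-0, and whole shoots were taken from 14-day-old seedlings, about 300 of them pooled for each replicate. The groups differed in the boric acid of an otherwise shared medium with sucrose: 0.3 µM (low boron), 30 µM (Ctrl) or 500 µM (high boron). Each group held 2 libraries of mRNA and 2 of footprints, 12 libraries in all, called library 2 and library 3 after the numbers in the deposited tables.

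Flavonoids are made from an activated phenylpropanoid acid and malonyl units. TT4, chalcone synthase, makes the first compound of the pathway, and TT5 (chalcone isomerase), F3H (flavanone 3-hydroxylase) and TT7 (flavonoid 3′-hydroxylase) turn it into dihydroflavonols, which flavonols and anthocyanins both derive from. FLS1, flavonol synthase, draws dihydroflavonols into flavonols, whereas DFR (dihydroflavonol reductase) and LDOX (leucoanthocyanidin dioxygenase) draw them into the anthocyanin branch. UF3GT adds a xylose to the anthocyanin's glucose, 5MAT adds a malonyl group, and TT19, a glutathione transferase, is needed for anthocyanins to accumulate in the vacuole. In Arabidopsis shoots the flavonols act as sunscreens and the anthocyanins give the red colour of stressed leaves. A footprint is the piece of mRNA that a ribosome protects from nuclease, so footprints count ribosomes on a coding sequence, and footprints per mRNA, called translation efficiency here, compare the 2 assays for 1 gene.

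Total counts ran from 7563365 to 9256564 in the mRNA libraries and from 6903881 to 24206655 in the footprint libraries. The 10 genes had 10 to 187 counts per mRNA library and 5 to 630 per footprint library. The lowest count, 5 footprints, has an exact Poisson 95% interval of 1.62 to 11.7, which covers counting error only. Levels are CPM, edgeR's counts scaled to a common library size, and since coding lengths were not used, levels are compared between groups and not between genes. A change was called where the adjusted p of edgeR's quasi-likelihood test was under 0.05, and changes are log2 fold changes ± SE. A call is said to need a library where leaving that library out lost it, the adjusted p then following in brackets. By whole gene span, TT4, F3H and TT19 overlap a neighbouring gene in the RefSeq gene table of assembly TAIR10.1. The neighbour of F3H is a non-coding RNA gene. Counts were per coding sequence, and overlap of coding sequences was not checked. The sources used here do not say whether the counting used strand. In whole shoots, fewer cells of a type and less RNA per cell cannot be told apart.

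At high boron the ribosome footprints of the pathway were higher than in Ctrl, by a margin that its mRNA did not show. The summed footprints of the 10 enzymes were 64.4 and 75.3 CPM in the Ctrl libraries, 71.0 and 71.2 CPM at low boron, and 129 and 134 CPM at high boron. Their summed mRNA was 65.7 and 68.7 CPM in Ctrl, 85.9 and 77.5 CPM at low boron, and 78.3 and 72.2 CPM at high boron. Both high-boron footprint libraries thus stood above the other 4, which lay close together, whereas the high-boron mRNA libraries stood just above Ctrl and overlapped low boron. TT4 was the largest single part of the footprint sum at high boron. Without TT4 the summed footprints were 47.9 and 55.0 CPM in Ctrl, 49.1 and 51.2 CPM at low boron, and 82.8 and 78.1 CPM at high boron, so the high-boron libraries stood above the other 4 in this sum too.

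**Figure D1:**
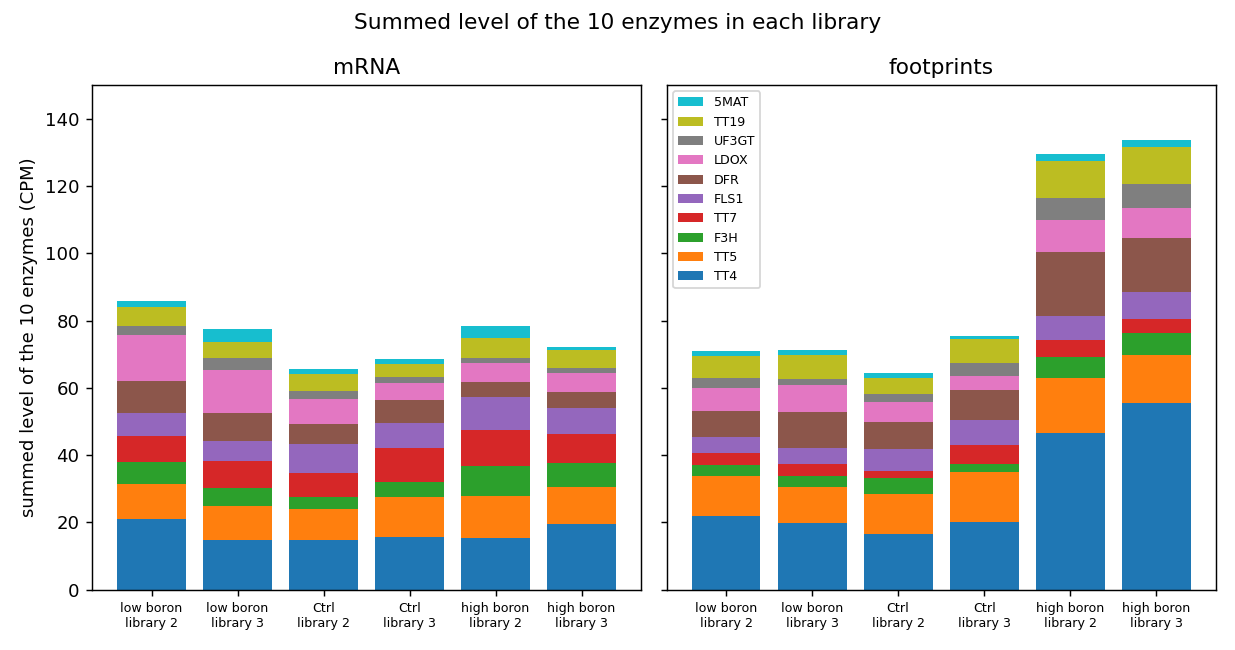
Summed level of the 10 enzymes (CPM, stacked by gene) in each library, mRNA on the left and footprints on the right. The high-boron footprint bars reach 129 and 134 CPM, above the 64.4 to 75.3 CPM of the other footprint libraries, while the mRNA bars stay between 65.7 and 85.9 CPM.

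Chalcone synthase, the entry enzyme, carried the clearest rise in footprints. TT4 (AT5G13930) had 16.5 and 20.2 CPM of footprints in Ctrl, 21.9 and 20.0 CPM at low boron, and 46.6 and 55.5 CPM at high boron. TT4 mRNA was 14.7 and 15.7 CPM in Ctrl, 21.2 and 14.9 CPM at low boron, and 15.3 and 19.5 CPM at high boron. Both high-boron footprint libraries lay far above the other 4, and the mRNA ranges of all 3 groups overlapped. Against Ctrl, TT4 footprints rose 2.79-fold at high boron (1.48 ± 0.19, edgeR adjusted p = 0.000718), a call that was kept in all 12 alternatives run, the highest adjusted p being 0.0211. TT4 mRNA changed by 0.20 ± 0.18 (edgeR adjusted p = 0.571), and its translation efficiency rose by 1.28 ± 0.26 (edgeR adjusted p = 0.0278). The efficiency call needed both mRNA libraries of Ctrl (0.0695 without library 2, 0.161 without library 3), both of high boron (0.198 and 0.0603), footprint library 2 of Ctrl (0.147) and footprint library 3 of high boron (0.0883).

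DFR, the first enzyme of the anthocyanin branch, gained footprints at high boron while its mRNA was at its lowest there. DFR (AT5G42800) footprints stood at 7.93 and 8.95 CPM in Ctrl, 7.79 and 10.9 CPM at low boron, and 19.1 and 16.0 CPM at high boron. DFR mRNA stood at 5.98 and 6.80 CPM in Ctrl, 9.50 and 8.58 CPM at low boron, and 4.24 and 4.76 CPM at high boron. The 3 groups did not overlap in mRNA, with the order low boron, Ctrl, high boron from the top. In footprints high boron stood above the other groups, which overlapped. With 2 libraries a group such gaps are common. In mRNA 36.4% of all genes tested had both low-boron libraries above both of Ctrl. Both high-boron mRNA libraries stood below both of Ctrl for 25.3% and below both of low boron for 37.1%. Against Ctrl, DFR footprints rose at high boron (1.07 ± 0.23, edgeR adjusted p = 0.0256) and translation efficiency rose (1.58 ± 0.32, edgeR adjusted p = 0.0278), with an mRNA difference of -0.50 ± 0.23 that missed the threshold (edgeR adjusted p = 0.218). In footprints the call needed both Ctrl libraries (0.244 without library 2, 0.0738 without library 3) and library 2 of high boron (0.179). The efficiency call needed each of the 6 mRNA libraries (0.0547 and 0.0536 without libraries 2 and 3 of low boron, 0.0617 and 0.177 for Ctrl, 0.157 and 0.107 for high boron), footprint library 2 of Ctrl (0.117) and footprint library 2 of high boron (0.0993).

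Counted over the pathway, 2 of the 10 enzymes, TT4 and DFR, were called higher in footprints at high boron against Ctrl, where 0.463% of the 17697 genes tested were called higher and 1.98% in either direction. The footprint change was above 0 for 10 of 10 enzymes, with a median of 0.82, against 52.1% of all genes tested and a median of 0.01. That count depended on single libraries. Without footprint library 2 of Ctrl the changes of TT7 (-0.32) and FLS1 (-0.014) were below 0. Without footprint library 3 of high boron that of FLS1 was -0.0035. Both high-boron footprint libraries stood above both Ctrl libraries for 7 of the 10 enzymes and for 18.3% of all genes. In mRNA 1 of 10 was called at high boron, F3H, where 4.5% of the 18403 genes tested were called higher and 9.06% in either direction. In translation efficiency 2 of 10, again TT4 and DFR, were called higher, where 0.0347% of the 17306 genes tested were called higher and 0.734% in either direction. That share is 6 genes in all, the other 4 being BT2 (AT3G48360), AT3G28510, AT3G26440 and AT3G11120.

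**Figure D2:**
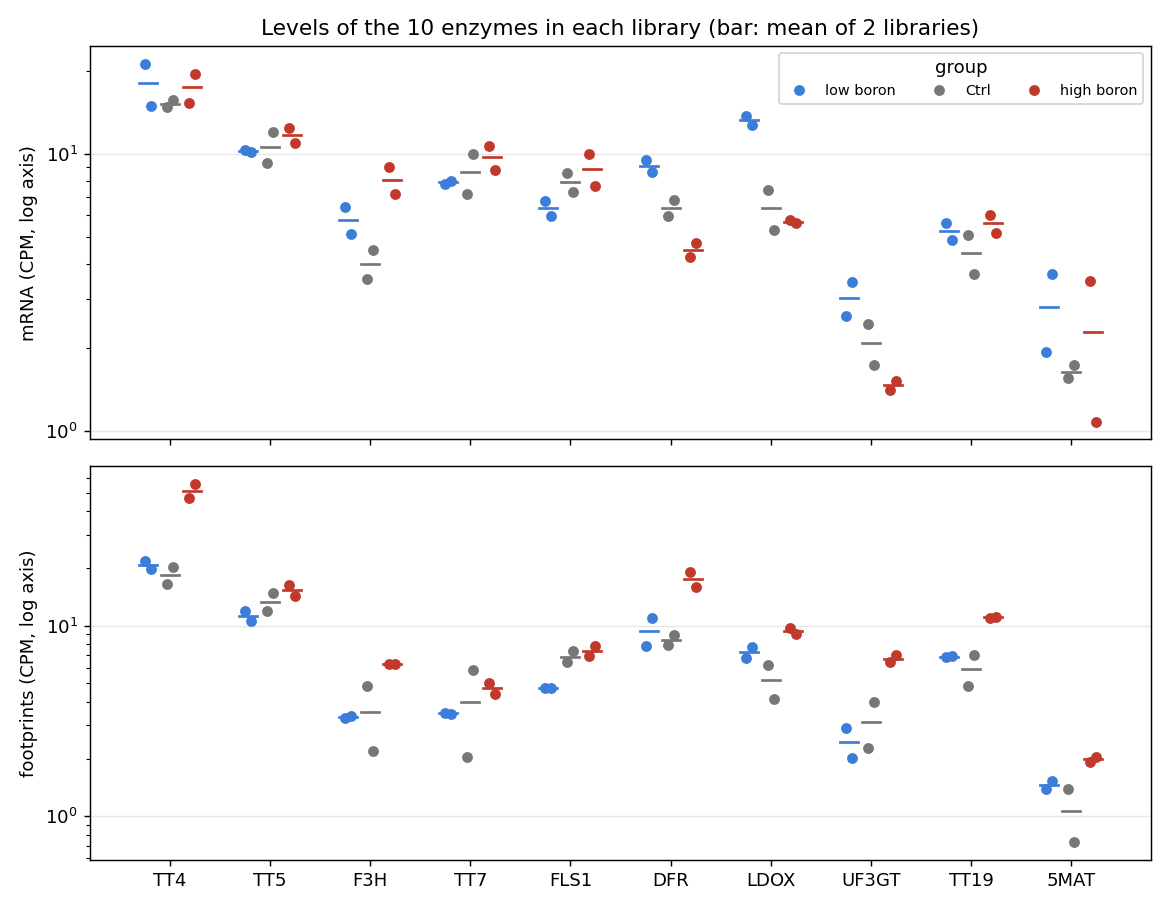
Level of each of the 10 enzymes in each library (CPM, log axis), mRNA above and footprints below, with points for the 2 libraries of a group and a bar for their mean. In footprints the high-boron points of TT4 (46.6 and 55.5 CPM) and DFR (19.1 and 16.0 CPM) stand above all others of the same gene.

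F3H, which makes the dihydroflavonols, was the enzyme called in mRNA at high boron. Its mRNA (AT3G51240) was 3.54 and 4.50 CPM in Ctrl, 6.45 and 5.12 CPM at low boron, and 8.99 and 7.15 CPM at high boron. The high-boron libraries were the highest and the Ctrl libraries the lowest, with no overlap between any groups. Of all genes tested in mRNA, 36.4% had both low-boron libraries above both of Ctrl. Both high-boron libraries stood above both of Ctrl for 24.2% and above both of low boron for 35%. F3H mRNA rose against Ctrl by 1.00 ± 0.25 (edgeR adjusted p = 0.0201), a call that failed with DESeq2 (0.105) and needed library 2 of Ctrl (0.0737) and library 2 of high boron (0.161). F3H footprints were 4.82 and 2.20 CPM in Ctrl, 3.29 and 3.36 CPM at low boron, and 6.29 and 6.30 CPM at high boron, a difference between high boron and Ctrl of 0.77 ± 0.34 (edgeR adjusted p = 0.396). Its translation efficiency differed by -0.25 ± 0.43 (edgeR adjusted p = 0.931). The call for F3H lay in mRNA and those for TT4 and DFR in footprints, a difference between genes that was not tested.

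TT19, UF3GT, LDOX and 5MAT had high-boron footprints above both Ctrl libraries without passing the threshold. TT19 (AT5G17220) footprints were 4.82 and 7.04 CPM in Ctrl, 6.83 and 6.91 CPM at low boron, and 11.0 and 11.1 CPM at high boron, a difference from Ctrl of 0.93 ± 0.25 (edgeR adjusted p = 0.0858). UF3GT (AT5G54060) footprints were 2.29 and 3.96 CPM in Ctrl, 2.91 and 2.02 CPM at low boron, and 6.44 and 6.99 CPM at high boron (1.15 ± 0.34, edgeR adjusted p = 0.129). LDOX (AT4G22880) footprints were 6.21 and 4.11 CPM in Ctrl, 6.74 and 7.77 CPM at low boron, and 9.70 and 9.04 CPM at high boron (0.83 ± 0.27, edgeR adjusted p = 0.17). In TT19, UF3GT and LDOX, as in 5MAT, the 2 high-boron libraries were the 2 highest of the 6. With no filter on low counts TT19 (0.0232) and UF3GT (0.027) passed.

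The other 4 enzymes, like TT19, were called in no comparison of any assay. TT5 (AT3G55120) ranged from 9.30 to 12.5 CPM in mRNA and from 10.6 to 16.3 CPM in footprints over the 6 libraries of each assay. FLS1 (AT5G08640), the flavonol enzyme, ranged from 5.96 to 10.0 CPM in mRNA and from 4.70 to 7.81 CPM in footprints, and its footprint difference between high boron and Ctrl was 0.10 ± 0.25 (edgeR adjusted p = 0.948), the smallest of the 10. TT7 (AT5G07990) ranged from 7.19 to 10.7 CPM in mRNA and from 2.04 to 5.87 CPM in footprints, and both ends of the footprint range were Ctrl libraries. 5MAT (AT3G29590) had the lowest counts, with 0.733 to 2.06 CPM of footprints and 1.08 to 3.69 CPM of mRNA. At these counts the 5MAT footprint difference between high boron and Ctrl, 0.81 ± 0.48 (edgeR adjusted p = 0.612), could not be told from 0.

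The 2 Ctrl footprint libraries differed from each other more for these enzymes than for genes at large. The median absolute log2 difference between them was 0.555 over the 10 enzymes and 0.265 over all genes tested, the 95th percentile of all genes being 0.956. Library 2 was above library 3 by 1.08 for F3H, and TT7 was lower in library 2 by a log2 difference of -1.45, so both fell outside that percentile. Between the 2 high-boron footprint libraries the median was 0.139, and between the low-boron libraries it was 0.130, both below the values for all genes (0.249 and 0.193). In mRNA the median over the enzymes was above that of all genes in each group. It was 0.343 against 0.153 in Ctrl, 0.241 against 0.145 at high boron and 0.192 against 0.121 at low boron. The genes at large were not matched to the enzymes by count. The part of the spread between Ctrl libraries in the comparisons with Ctrl was not tested beyond leaving each library out.

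At low boron the mRNA of LDOX, which makes anthocyanidins, was higher than in Ctrl, and no enzyme was called in footprints. LDOX mRNA was 7.41 and 5.30 CPM in Ctrl, 13.7 and 12.8 CPM at low boron, and 5.78 and 5.63 CPM at high boron. Both low-boron libraries stood well above the other 4, which overlapped. Of all genes tested in mRNA, 36.4% had both low-boron libraries above both of Ctrl. LDOX mRNA rose by 1.05 ± 0.20 (edgeR adjusted p = 0.000813), a call kept in every alternative run, while its footprints differed by 0.44 ± 0.26 and its translation efficiency by -0.61 ± 0.33, neither called. DFR mRNA had the next change by p, 0.50 ± 0.20 (edgeR adjusted p = 0.0724). In mRNA 1 of 10 enzymes was called higher at low boron, where 19.5% of all genes tested were called higher and 33.3% in either direction, so the enzymes were called no more often than genes at large.

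In footprints 0 of 10 enzymes were called at low boron with edgeR, DESeq2 or limma voom, and 0 had an unadjusted p under 0.05, where 15% of all genes tested were called in either direction. In translation efficiency 0 of 10 were called at low boron with any of the same tools, and 0 had an unadjusted p under 0.05, where 0.0231% of all genes were called. The efficiency change was above 0 for 1 of 10 enzymes, TT7, and for 42.6% of all genes. The median of the 10 was -0.29, against a median of -0.05 over all genes. TT19 (-0.003 ± 0.34) and TT4 (-0.03 ± 0.26) lay near 0. The signs of TT19, TT4, TT7, TT5, F3H and 5MAT differed in some alternatives.

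**Figure D3:**
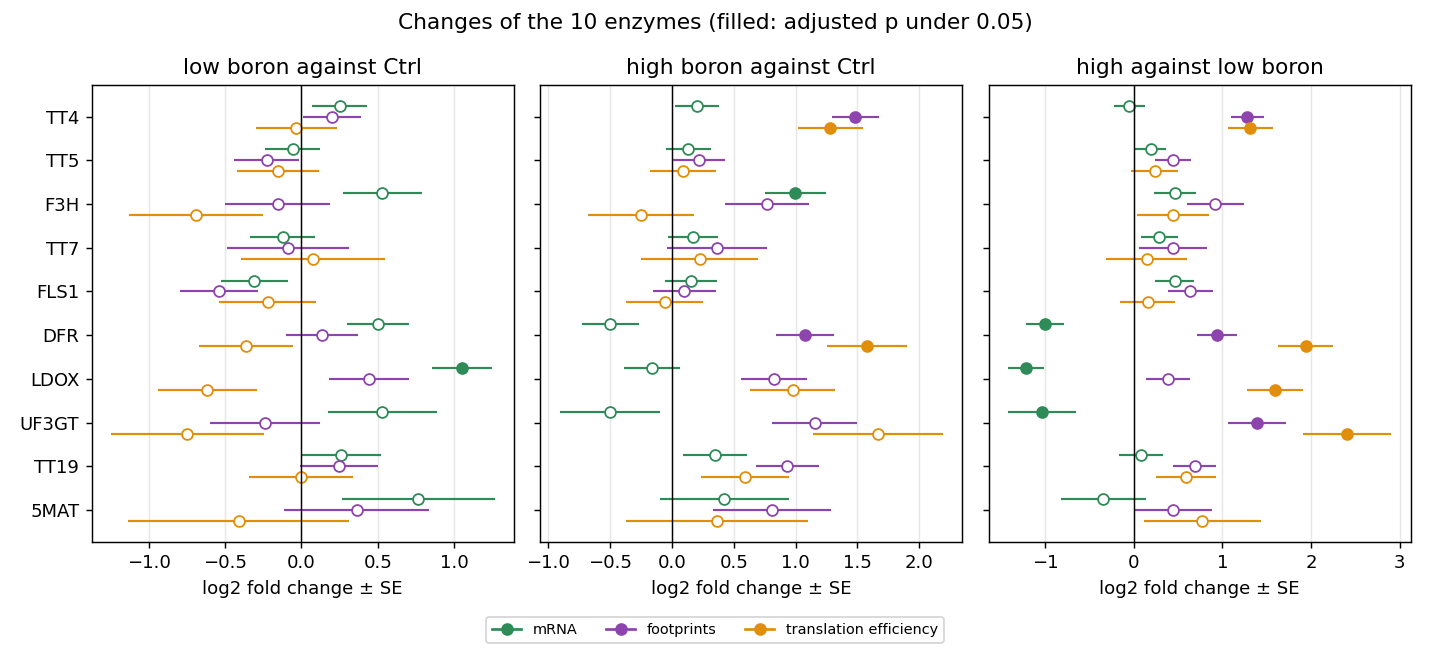
Log2 fold change ± SE of the 10 enzymes in mRNA, footprints and translation efficiency for each comparison, with filled points where the edgeR adjusted p was under 0.05. In the middle panel the footprint points of all 10 enzymes lie above 0, with TT4 at 1.48 and DFR at 1.07 filled, and in the left panel LDOX mRNA at 1.05 is the only filled point.

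Set directly against each other, high and low boron differed in opposite directions in the mRNA and in the footprints of DFR and UF3GT. This comparison shares its high-boron libraries with that of high boron against Ctrl. DFR mRNA fell from low to high boron by 1.00 ± 0.22 on the log2 scale (edgeR adjusted p = 0.0018), LDOX mRNA fell by 1.21 ± 0.20 (edgeR adjusted p = 0.00022), and both calls were kept in every alternative run. UF3GT mRNA, at 2.43 and 1.73 CPM in Ctrl, was 2.60 and 3.46 CPM at low boron and 1.41 and 1.52 CPM at high boron. UF3GT mRNA fell by 1.03 ± 0.38 (edgeR adjusted p = 0.0411) from 23 and 29 counts to 11 and 14. The UF3GT call failed with DESeq2 (0.192) and limma voom (0.053), and it needed both low-boron libraries (0.0681 without library 2, 0.252 without library 3) and both high-boron libraries (0.152 and 0.123).

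In footprints the order of the groups was the other one. UF3GT footprints rose from low to high boron by 1.39 ± 0.33 (edgeR adjusted p = 0.00648), DFR footprints rose by 0.94 ± 0.22 (edgeR adjusted p = 0.00721), and LDOX footprints differed by 0.38 ± 0.25 (edgeR adjusted p = 0.313). The UF3GT call needed library 3 of low boron (0.0596), and the DFR call needed library 2 of low boron (0.144) and library 2 of high boron (0.061). TT4 footprints rose by 1.28 ± 0.18 (edgeR adjusted p = 0.000133), kept in every alternative run, with an mRNA difference of -0.05 ± 0.17. Of all 17306 genes tested in both assays, DFR and UF3GT were the only 2 called lower in mRNA and higher in footprints in this comparison, which is 0.0116%. That count was made in the main fit only. For UF3GT it rests on the mRNA call that failed with DESeq2 and limma voom. LDOX lacked the footprint call and TT4 the mRNA call.

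Counted over the pathway, 3 of 10 enzymes, all of the anthocyanin branch, were called lower in mRNA at high against low boron. Of all genes 23.1% were called lower and 42.4% in either direction, so the count of mRNA calls was near that of genes at large. In footprints 3 of 10 (TT4, DFR and UF3GT) were called higher, where 9.34% of all genes were called higher and 20.7% in either direction. All 10 enzymes had both high-boron footprint libraries above both low-boron libraries, as did 31.2% of all genes, and the median footprint difference of the 10 was 0.66. F3H (0.92 ± 0.33, edgeR adjusted p = 0.0564), TT19 (0.69 ± 0.24, edgeR adjusted p = 0.0525) and FLS1 (0.64 ± 0.25, edgeR adjusted p = 0.0857) missed the threshold. F3H and TT19 passed in 6 alternatives: limma voom (0.0396 and 0.041), no filter (0.0222 and 0.0432), the replicate number as a block (0.0395 and 0.0405), the fit of these 2 groups alone (0.0293 and 0.038), and leaving out Ctrl library 2 (0.0314 and 0.0366) or 3 (0.0281 and 0.04).

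**Figure D4:**
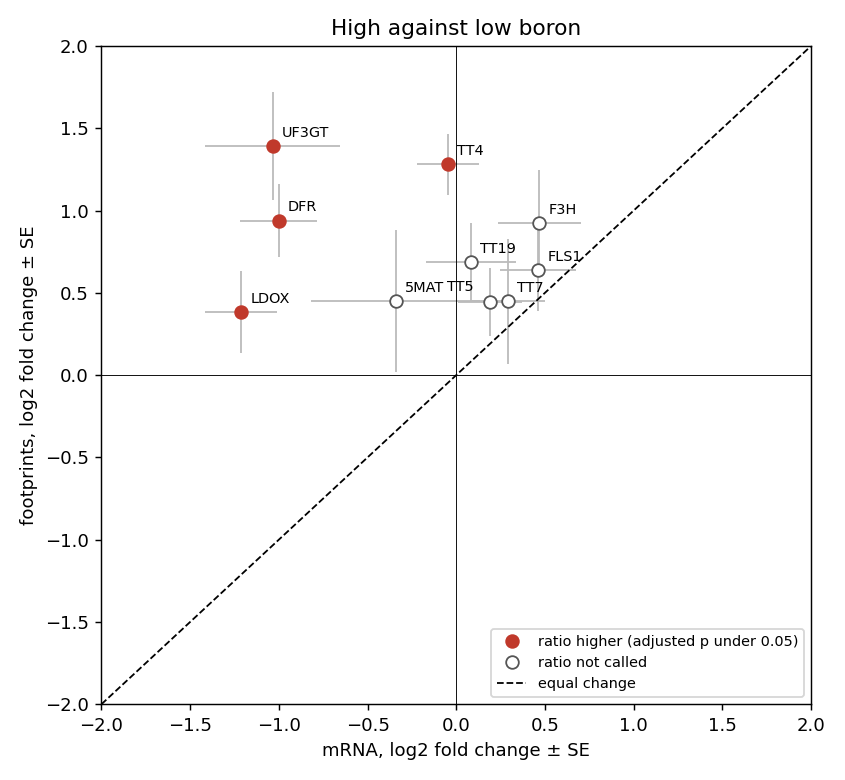
Footprint change against mRNA change of the 10 enzymes between high and low boron (log2 fold change ± SE), with red points where translation efficiency was called higher and a dashed line of equal change. All 10 points lie on or above the line, and DFR, UF3GT and LDOX lie to the left, with LDOX farthest at an mRNA change of -1.21.

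In translation efficiency 4 of 10 enzymes, TT4, DFR, LDOX and UF3GT, were called higher at high than at low boron, where 0.324% of all genes were called higher and 1.62% in either direction. DFR rose by 1.94 ± 0.31 (edgeR adjusted p = 0.00248), a call kept in all 17 alternatives run. UF3GT rose by 2.41 ± 0.50 (edgeR adjusted p = 0.0161), LDOX by 1.59 ± 0.32 (edgeR adjusted p = 0.0128) and TT4 by 1.31 ± 0.26 (edgeR adjusted p = 0.0104). The change was above 0 for 10 of 10 enzymes and for 61.7% of all genes, with medians of 0.68 and 0.09. Without mRNA library 3 of high boron the change of FLS1 was -0.027. The TT4 call needed mRNA library 2 of low boron (0.131) and of high boron (0.103). The UF3GT call needed mRNA libraries 2 and 3 of low boron (0.0502 and 0.146) and of high boron (0.0958 and 0.0745), and the LDOX call needed the same 4 libraries (0.086, 0.0584, 0.0738 and 0.0707) and footprint library 2 of low boron (0.0843).

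The ratio of mean footprint CPM to mean mRNA CPM places each enzyme among all genes without needing its length. In Ctrl, TT4, DFR and UF3GT stood at log2 ratios of 0.27, 0.40 and 0.59, at the percentiles 77, 81.3 and 86.7 of the 17306 genes. At high boron the ratios of TT4, DFR and UF3GT were 1.55, 1.96 and 2.20, at the percentiles 97.7, 98.9 and 99.3. LDOX went from -0.87 at low boron through -0.30 in Ctrl to 0.72 at high boron, from the percentile 33.4 through 54.3 to 88.1. These 4 genes moved towards the top of the distribution, whose median stayed between -0.48 and -0.39. TT19 did so too, from the percentile 82.4 in Ctrl to 92.8 at high boron. The UF3GT ratio at high boron rests on 11 and 14 mRNA counts. TT7 had the lowest ratio of the 10 in each group, at -1.18 for low boron, -1.12 for Ctrl and -1.04 for high boron.

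**Figure D5:**
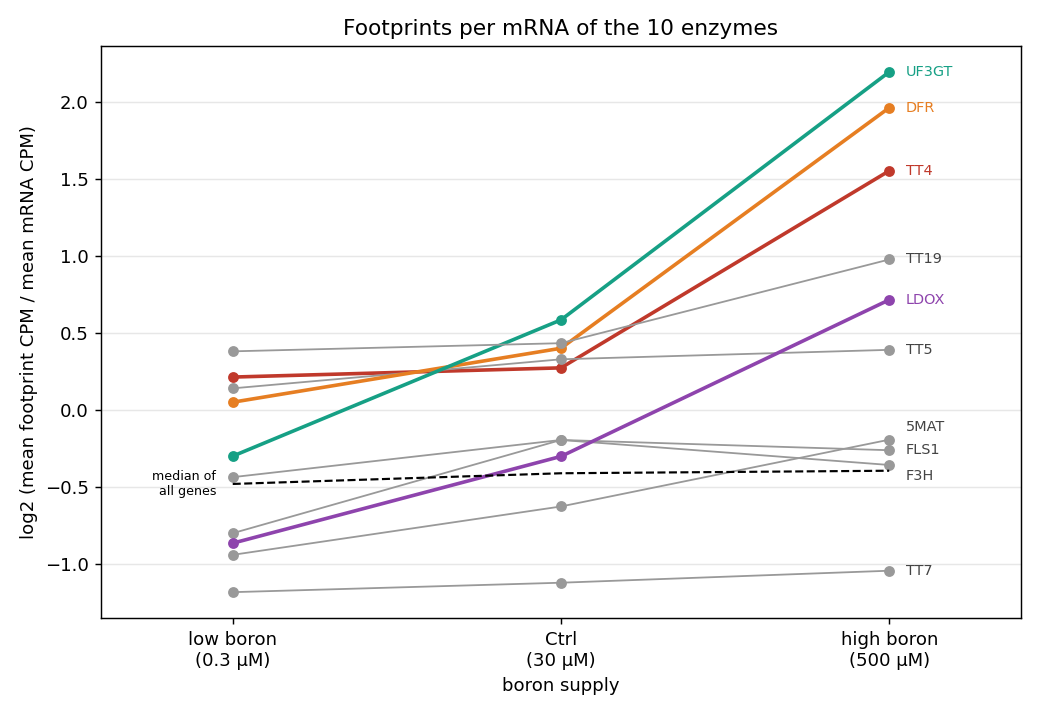
Log2 ratio of mean footprint CPM to mean mRNA CPM for each of the 10 enzymes at the 3 boron supplies, with the median of all genes as a dashed line. UF3GT, DFR and TT4 reach 2.20, 1.96 and 1.55 at high boron, and TT7 stays lowest in each group.

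The general phenylpropanoid enzymes, which supply the pathway and also lignin, were called more often at low than at high boron against Ctrl, as were genes at large. In mRNA 33.3% of all genes were called in either direction at low boron, 9.06% at high boron and 42.4% at high against low boron. In footprints these shares were 15%, 1.98% and 20.7%. They belong beside the counts of this and the following gene lists. In mRNA 6 of the 9 tested were called higher at low boron: the phenylalanine ammonia-lyases PAL1 (1.75 ± 0.08, edgeR adjusted p = 1.91e-09) and PAL2 (0.82 ± 0.09), the cinnamate hydroxylase C4H (1.20 ± 0.10), and the coumarate-CoA ligases 4CL1 (0.69 ± 0.08), 4CL2 (0.54 ± 0.14) and 4CL5 (1.38 ± 0.13). In footprints 5 of 9 were called higher at low boron: PAL1 (1.33 ± 0.20), C4H (1.24 ± 0.21), 4CL5 (1.20 ± 0.19), PAL2 (0.73 ± 0.19) and 4CL2 (0.79 ± 0.22). At high boron against Ctrl, 1 of 9 was called in mRNA, PAL2 (0.49 ± 0.09, edgeR adjusted p = 0.00413), and 0 in footprints with edgeR, 1 having an unadjusted p under 0.05. The 4CL2 mRNA call failed with DESeq2 (0.083) and needed both low-boron libraries (0.0613 and 0.055) and library 2 of Ctrl (0.0729). In footprints the PAL2 call needed both low-boron libraries (0.0701 and 0.111) and library 2 of Ctrl (0.159), and the 4CL2 call needed library 3 of low boron (0.266) and library 2 of Ctrl (0.234).

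Between high and low boron, 6 of these 9 genes were called lower in mRNA (PAL1, PAL2, C4H, 4CL1, 4CL2 and 4CL5) and PAL3 higher (0.60 ± 0.14). In footprints 5 were called lower, namely PAL1 (-1.61 ± 0.21), C4H (-1.09 ± 0.21), 4CL1 (-0.62 ± 0.20), 4CL2 (-0.85 ± 0.22) and 4CL5 (-1.82 ± 0.19), and 2 higher, namely PAL4 (1.28 ± 0.35) and 4CL3 (1.07 ± 0.29). In Arabidopsis 4CL3 is the ligase tied to flavonoid synthesis, whereas 4CL1 and 4CL2 serve mainly lignin. The 4CL3 call (edgeR adjusted p = 0.0155) needed both low-boron libraries (0.052 and 0.0984) and library 3 of high boron (0.133), and the PAL4 call (0.0154) needed the same libraries (0.0625, 0.0824 and 0.125). The PAL2 mRNA call needed library 2 of low boron (0.0882) and of high boron (0.0806). In footprints the 4CL1 call needed both low-boron libraries (0.0876 and 0.2) and library 2 of high boron (0.214), and the 4CL2 call needed library 3 of low boron (0.149) and library 2 of high boron (0.0565).

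Of the genes that decorate or carry flavonols, 7 of 8 were tested, and in mRNA 4 were called higher at low boron and 1 lower. The higher ones were the methyltransferase OMT1 (0.92 ± 0.08), the rhamnose synthase RHM1 (0.84 ± 0.09), the transporter DTX35 (0.62 ± 0.08) and AT1G06000 (0.85 ± 0.13), all kept in every alternative run. The lower one was the flavonol rhamnosyltransferase UGT78D1 (-0.35 ± 0.11), a call that failed with DESeq2 (0.0759) and needed library 2 of low boron (0.295) and library 3 of Ctrl (0.0617). In footprints OMT1 (0.62 ± 0.19), RHM1 (0.69 ± 0.17) and AT1G06000 (0.86 ± 0.21) were called higher and UGT78D1 (-0.66 ± 0.17) lower at low boron. OMT1 and UGT78D1 needed all 4 libraries compared (0.0947 to 0.213 and 0.0583 to 0.175), RHM1 needed both low-boron libraries (0.12 and 0.0787) and library 2 of Ctrl (0.111), and AT1G06000 needed library 3 of low boron (0.159) and both Ctrl libraries (0.071 and 0.0526). At high boron against Ctrl none of the 7 was called in mRNA or footprints with edgeR, with 1 and 0 at an unadjusted p under 0.05.

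Between high and low boron, OMT1, RHM1, DTX35 and AT1G06000 were called lower in mRNA and UGT78D1 higher, and in footprints OMT1, RHM1 and AT1G06000 lower and UGT78D1 higher (0.69 ± 0.17, edgeR adjusted p = 0.0102). In footprints each call needed 2 or 3 of the 4 libraries: both low-boron libraries and library 3 of high boron for UGT78D1 (0.0753, 0.109 and 0.0745) and RHM1 (0.101, 0.053 and 0.0531), both low-boron libraries and library 2 of high boron for OMT1 (0.198, 0.0934 and 0.111), and library 3 of low boron and 2 of high boron for AT1G06000 (0.132 and 0.123). The UGT78D1 mRNA call needed library 2 of low boron (0.11). Of the other anthocyanin-decorating genes, 5 were tested in mRNA and 4 in footprints. At high boron against Ctrl none was called in mRNA, footprints or translation efficiency with edgeR, with 2, 1 and 1 at an unadjusted p under 0.05. Their footprint change there was above 0 for 4 of 4, as for 52.1% of all genes, with a median of 0.58. Their mRNA change was above 0 for 3 of 5 (median 0.06) and their efficiency change for 3 of 4 (median 0.38). At low boron BGLU10, a glycoside hydrolase family member linked to anthocyanin glucosylation, rose in mRNA (0.87 ± 0.10) and AT1G03495 rose (1.04 ± 0.29), the latter failing with DESeq2 (0.0888) and needing library 2 of low boron (0.106) and library 3 of Ctrl (0.0792). BGLU10 footprints rose at low boron (0.55 ± 0.17, edgeR adjusted p = 0.043), a call that needed all 4 libraries compared (0.0889 to 0.214). Between high and low boron BGLU10 (-0.56 ± 0.10) and AT1G03495 (-0.98 ± 0.29) fell in mRNA, the latter again failing with DESeq2 (0.0855) and needing library 2 of low boron (0.105) and of high boron (0.0803).

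Several of the MYB and bHLH activators that switch the enzymes on had few counts, and 8 of 13 were tested in mRNA and 5 in footprints. PAP1 (MYB75, AT1G56650), the main anthocyanin MYB, had 1.96 and 1.91 CPM of footprints in Ctrl, 2.65 and 2.40 CPM at low boron, and 5.26 and 3.84 CPM at high boron. Both high-boron libraries were above the others, with a difference from Ctrl of 1.25 ± 0.36 that missed the threshold (edgeR adjusted p = 0.109) and passed with no filter (0.0428). PAP1 mRNA differed by -0.40 ± 0.40 and translation efficiency by 1.65 ± 0.53 (edgeR adjusted p = 0.252). TT8, the bHLH partner, had 3 to 13 counts of mRNA and was not tested in footprints, and MYB12, the flavonol MYB, had 0 to 5 counts and was not tested. At low boron the mRNA of TTG1, the WD40 partner (0.42 ± 0.09), and of HYH, a light-signalling bZIP (1.21 ± 0.24), rose, and that of MYB111, another flavonol MYB, fell by 1.12 ± 0.35, the last failing with DESeq2 (0.107) and needing both low-boron libraries (0.0638 and 0.173) and library 2 of Ctrl (0.152).

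Between high and low boron, TTG1 (-0.40 ± 0.09) and HYH (-0.86 ± 0.23) fell in mRNA, MYB111 (1.06 ± 0.35) and the bHLH gene EGL3 (0.63 ± 0.23) rose, and HYH fell in footprints (-1.35 ± 0.36). TTG1 needed library 2 of high boron (0.0509), and HYH needed library 2 of low boron and 3 of high boron in mRNA (0.0699 and 0.0502) and in footprints (0.102 and 0.0918). MYB111 needed both low-boron libraries (0.0625 and 0.174) and library 3 of high boron (0.139), EGL3 needed all 4 libraries (0.0784 to 0.167), and the mRNA calls of HYH (0.0809), MYB111 (0.114) and EGL3 (0.174) failed with DESeq2. At high boron against Ctrl none of the activators was called in mRNA or footprints with edgeR, with 0 of 8 and 1 of 5 at an unadjusted p under 0.05.

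Among the repressors, MYBL2 (AT1G71030), a small MYB that keeps anthocyanin genes low, was called in mRNA at high boron against Ctrl and in footprints at high against low boron. Its mRNA was 88.7 and 118 CPM in Ctrl and 142 to 155 CPM at high boron, a rise of 0.52 ± 0.12 (edgeR adjusted p = 0.01) that needed library 2 of high boron (0.0919). MYBL2 footprints were 122 to 127 CPM at low boron, 166 to 168 CPM in Ctrl and 202 to 286 CPM at high boron. The groups did not overlap in footprints, and the rise from low to high boron was 0.97 ± 0.19 (edgeR adjusted p = 0.00178), kept in every alternative run. Of all genes tested in footprints, 27.2% had both low-boron libraries below both of Ctrl. Both high-boron libraries stood above both of Ctrl for 18.3% and above both of low boron for 31.2%. The footprint difference of high boron from Ctrl was not called (0.55 ± 0.19, edgeR adjusted p = 0.212), nor in any alternative, and mRNA at high against low boron was not called (0.22 ± 0.11, edgeR adjusted p = 0.142) but passed without Ctrl library 2 (0.0321) or 3 (0.0299) and in the fit of 2 groups (0.0311). SPL9 mRNA, of a gene that opposes the MYB complex, rose at high boron (0.76 ± 0.19, edgeR adjusted p = 0.0217) and from low to high boron (1.28 ± 0.20), the first failing with DESeq2 (0.105) and needing library 2 of Ctrl (0.129) and both high-boron libraries (0.0955 and 0.0971). LBD38, a nitrogen-responsive repressor, fell in mRNA at high boron (-0.60 ± 0.17, edgeR adjusted p = 0.0367, lost in 8 of 12 alternatives, at up to 0.32 without Ctrl library 3) and rose at low boron in mRNA (0.51 ± 0.15) and footprints (0.91 ± 0.19).

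At low boron the LBD38 call in mRNA failed with DESeq2 (0.0736) and needed library 2 of low boron (0.16) and of Ctrl (0.165), and that in footprints needed library 3 of low boron (0.0624) and library 2 of Ctrl (0.0539). Between high and low boron LBD38 fell in mRNA (-1.11 ± 0.16) and footprints (-0.79 ± 0.19), the second needing library 3 of low boron (0.0824) and of high boron (0.058). LBD37, its near relative, rose at low boron in mRNA (0.28 ± 0.10, edgeR adjusted p = 0.0463, lost in 8 of 12 alternatives, at up to 0.408 without Ctrl library 2). LBD37 mRNA was lower at high than at low boron (-0.37 ± 0.10), a call that needed library 2 of both groups (0.0716 and 0.0843). Of the 5 relatives of FLS1 3 were tested, and none was called in any comparison with edgeR, 1 having an unadjusted p under 0.05 in mRNA at low and 1 at high boron. In translation efficiency no gene of these lists was called in any comparison with edgeR, MYBL2 passing at high against low boron when footprint library 2 of high boron was left out (0.97, adjusted p = 0.0269).

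The shoot markers RBCS1A, LHCB1.3, RCA and GLDP1 were present in every library, with summed mRNA of 28650 and 30390 CPM in Ctrl, 21630 and 21640 CPM at low boron, and 24520 and 25040 CPM at high boron (CPM of the unscaled library total for the markers). Their summed footprints were 16120 and 18370 CPM in Ctrl, 13280 and 12250 CPM at low boron, and 12450 and 16340 CPM at high boron. In mRNA all 4 were called lower at low boron (-0.25 to -0.73), RBCS1A needing library 2 of low boron (0.0773) and RCA failing with the replicate block (0.0693) and needing both low-boron libraries (0.201 and 0.295) and library 2 of Ctrl (0.163). GLDP1 mRNA was higher at high than at low boron (0.70 ± 0.11, edgeR adjusted p = 9e-05). LHCB1.3 was called lower at high boron against Ctrl in mRNA (-0.45 ± 0.11, edgeR adjusted p = 0.0173) and in footprints (-1.17 ± 0.27, edgeR adjusted p = 0.0318). The mRNA call failed in the fit of 2 groups (0.0999) and needed both low-boron libraries (0.0727 and 0.0731), library 3 of Ctrl (0.0885) and library 2 of high boron (0.106), and the footprint call needed both Ctrl libraries (0.195 and 0.0907) and library 2 of high boron (0.153). All 5 root markers had a count in every footprint library. Nearly all of their sum was BGLU23, whose source in these samples was not tested. That sum was 497 and 502 CPM in mRNA at low boron, 259 and 384 in Ctrl, and 158 and 183 at high boron, and BGLU23 mRNA was called higher at low boron (0.63 ± 0.14, failing with DESeq2 at 0.0946), lower at high boron (-0.94 ± 0.14) and lower at high against low boron (-1.57 ± 0.15). BGLU23 footprints were called lower at high against low boron (-1.35 ± 0.27), as was BGLU21 mRNA (-2.51 ± 0.78), the latter failing with DESeq2 (0.242) and limma voom (0.052) and needing library 2 of low boron (0.323) and of high boron (0.128). The root hair genes COBL9 and EXPA7 and the iron transporter IRT1 had 0 to 2 mRNA counts each. The 5 seed markers summed to 0 to 2.25 CPM in mRNA and 0.413 to 15.1 in footprints, mostly CRA1, with 15.1 and 6.18 at high boron, 6.44 and 15.1 in Ctrl and 0.413 and 7.89 at low boron. The 5 seed coat genes of tannin synthesis, in which the same enzymes work, summed to 20 to 29 counts of mRNA and 0 to 4 of footprints per library. Nearly all of that mRNA was AHA10, a proton pump, at 2.54 to 2.98 CPM and called in no comparison, while BAN had 0 or 1 count in each library and TT12 had 0 in all 12. The part of the shoot, root and seed markers in the results above was not tested.

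Across the 12 libraries, the mean profile of the 10 enzymes was most like that of DEX1 (AT3G09090, Pearson r = 0.845), APL3 (AT4G39210, 0.845), BR6OX2 (AT3G30180, 0.834), AT5G15910 (0.833) and GLX1 (AT1G11840, 0.828), out of 15484 genes. The likeness is a description over 12 values from 6 libraries of each assay, which share depth and group. None of the 5 was called in footprints at high boron against Ctrl, with differences of 0.09 to 0.63, BR6OX2 having the largest. Within the set, TT19 (0.79) and TT4 (0.727) followed the mean profile most closely and FLS1 (0.392) and TT7 (0.417) least, each gene being a part of that mean.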

How the data were processed

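The authors deposited raw counts per coding sequence in 1 table for each assay, the footprints being counted by P-site (the ribosome position that holds the growing chain), per the file names. Bowtie2 and SAMtools were used, per the submitters' processing notes. The genome build, the annotation and any use of strand are not given in the sources used here. From these counts mRNA and footprints were tested in R 4.3.3 with edgeR 4.0.16 (quasi-likelihood, TMM scaling, filterByExpr, 3 groups of 1 assay in 1 fit, Benjamini-Hochberg adjustment over all genes). Translation efficiency was the interaction of assay and boron in 1 fit of 12 libraries. The test was tried on simulated data in which 200 genes, none of low counts, changed 2-fold at high boron against Ctrl. It called 91.5% of them in mRNA, 51.5% in footprints and 39% in translation efficiency. A change not called in footprints or efficiency is thus not shown to be absent. The simulated spread was 1 value for all genes of an assay, so these shares need not hold for the enzymes. Columns were matched to groups only, because their replicate numbers differ from those of the sample labels. Whether equal numbers pair libraries is not given, and the main fits used no pairing. Deviations of equal-numbered libraries correlated at -0.0198 to 0.156 within an assay, and pairing between the assays was not tested. The p-values measure the spread between these libraries, each a pool of plants. edgeR's common biological variation between libraries was 6.92% in mRNA and 14.9% in footprints.

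The members and gene lists were chosen with earlier results of these data known. The text names all 10 enzymes, each called gene of the pathway lists, PAP1, MYB12, TT8 and MYBL2, and the 5 genes of most similar profile. Names came from the RefSeq gene table of assembly TAIR10.1, which held 27445 of the 27655 IDs. Alternatives were DESeq2 size factors, DESeq2 1.42.0, limma voom (limma 3.58.1), no filter, a replicate block, a fit of 2 groups and each library left out. Promoter and protein sequences were not used here.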

Additional observations from a re-analysis of the deposited data

How the results depend on the processing

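The counts of enzymes called kept within 1.5 times of the value reported in all but these cases. In mRNA at high boron against Ctrl, 1 enzyme became 0 with DESeq2 and 0 to 1 with a library left out. In footprints at high boron against Ctrl, 2 became 4 with no filter and 1 to 2 with a library left out. In footprints at high against low boron, 3 became 5 with limma voom, with no filter, with the replicate block and in the fit of 2 groups, and 2 to 5 with a library left out. In translation efficiency, 2 at high boron against Ctrl became 0 to 2 and 4 at high against low boron became 1 to 4 with a library left out. In the other comparisons the replicate block moved no count of enzymes by over 1.5 times. Over 1218 pairs of an enzyme's value and an alternative, the sign differed in 56, none of them a called value. With 2 libraries a group, a lone library left by an omission was taken to vary like the other groups. Depth limits most the values of 5MAT (5 to 33 footprint counts and 10 to 31 mRNA counts) and UF3GT (21 to 87 and 11 to 29).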
